A study of Mus musculus with 4 samples.

Results

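The genes described here are 10 SOX transcription factors of neural cells, taken by symbol from a count table of 23874 genes. They fall into 4 subgroups: SoxB1 (Sox1, Sox2 and Sox3), SoxC (Sox4 and Sox11), SoxD (Sox5 and Sox6) and SoxE (Sox8, Sox9 and Sox10). RNA was sequenced from engineered mouse neural tissue, in which neurospheres (balls of neural progenitors that grow in suspension) had been set in Matrigel, a basement membrane gel. All cultures grew in DMEM/F12 with N2, B27 and 20 ng/ml recombinant human bFGF, which keeps neural progenitors dividing. Cultures of the EF group were stimulated at 150 mV/mm on 3 days, 30 min each day, and harvested after 7 more days. The noEF group received no field. The labels state 3 replicates per group, of which 2 libraries per group were analysed here. The labels name no strain, age or genetic change for either group. The series design calls its control a suspension of neural stem cells, whereas each sample is labelled as engineered tissue, so the identity of noEF rests on the sample labels. The sources do not say whether replicates were grown as separate cultures. The p-values therefore reflect the spread among these libraries alone, and that spread may be purely technical.

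SOX proteins bind DNA through the HMG box, a domain that bends the double helix at short A- and T-rich sites. SoxB1 proteins hold neural progenitors in an undifferentiated state, SoxC proteins act in young neurons as they begin to express neuronal genes, and SoxE proteins drive the formation of glia, with Sox9 leading to astrocytes and Sox10 to oligodendrocytes. SoxD proteins lack a transactivation domain of their own and modulate the SoxE proteins, in oligodendrocyte precursors as in cartilage.

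The subgroups can be read in the DNA that encodes the HMG box. The stretches below start at the same codon of the box in every member and run for 60 bases, 5′ to 3′, as the GENCODE M21 transcripts of GRCm38 give them. Capitals mark each base that differs from Sox2, the reference of the comparison.
Sox2: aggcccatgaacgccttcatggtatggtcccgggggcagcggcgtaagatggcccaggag
Sox1: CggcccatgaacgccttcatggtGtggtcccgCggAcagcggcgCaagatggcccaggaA
Sox3: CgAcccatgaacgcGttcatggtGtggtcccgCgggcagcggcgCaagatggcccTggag
Sox4: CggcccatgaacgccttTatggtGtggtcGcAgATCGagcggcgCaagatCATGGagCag
Sox11: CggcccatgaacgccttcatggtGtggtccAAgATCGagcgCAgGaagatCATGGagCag
Sox5: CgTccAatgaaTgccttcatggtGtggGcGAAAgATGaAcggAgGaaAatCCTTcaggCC
Sox6: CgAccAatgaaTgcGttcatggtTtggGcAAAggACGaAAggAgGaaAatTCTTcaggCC
Sox8: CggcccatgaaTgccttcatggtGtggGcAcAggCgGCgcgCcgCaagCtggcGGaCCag
Sox9: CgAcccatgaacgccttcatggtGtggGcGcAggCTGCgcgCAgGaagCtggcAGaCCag
Sox10: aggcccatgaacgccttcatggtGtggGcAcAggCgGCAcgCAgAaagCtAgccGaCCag

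The SoxB1 genes Sox1 and Sox3 differed from Sox2 at 6 and 7 of these 60 bases, the SoxC and SoxE genes at 16 to 18, and the SoxD genes Sox5 and Sox6 at 23 and 24. Over the 207 bases of the box, the 8 pairs within a subgroup were 82.6% to 90.3% identical (median 87.4%) and the 37 pairs from different subgroups 53.1% to 74.9% (median 66.7%). This likeness bears on how well short reads separate the genes. The longest run of identical bases between any pair within a subgroup was 48, between Sox4 and Sox11, and no stretch of 50 bases in the longest transcript of a member occurred in another SOX gene. Other gene models did share sequence with some members. Exons of Gm26735, a non-coding gene on the opposite strand, overlap 54.6% of the exon bases of Sox4, and 2810468N07Rik likewise overlaps 10.6% of Sox8 and Sox5os1 9.25% of Sox5. None of them is listed in the count table, and the strand setting of the counting is not given in the sources used here, so their reads cannot be told apart from those of Sox4, Sox8 and Sox5.

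All 10 members were detected in all 4 libraries, with 215 to 12785 counts in a library that held 33748880 to 34554537 counts in total. Levels of different genes are compared per kilobase of exon (RPKM, here TMM-scaled CPM per kilobase), and values are means ± SD over the 4 libraries, both groups together. Sox2 was by far the most abundant at 164 ± 19.2 RPKM. Sox4 followed at 57.9 ± 1.68 RPKM and Sox9 at 44.9 ± 7.78 RPKM. Sox3 reached 34.7 ± 5.24 RPKM and Sox8 23.5 ± 2.58 RPKM. Sox11, Sox1 and Sox6 lay at 9.04 ± 0.813, 7.35 ± 1.37 and 5.58 ± 1.02 RPKM. Sox10 and Sox5 were lowest at 3.11 ± 0.930 and 2.07 ± 0.158 RPKM. In this order the ranges over the 4 libraries overlapped for Sox9 with Sox3, Sox11 with Sox1, Sox1 with Sox6 and Sox10 with Sox5. Compared within each library, Sox1 was above Sox6 in 4 of 4, whereas in the other overlapping pairs the order held in 3 of 4 libraries. The merged exons of Sox5 and Sox6 add up to 14.4 and 14.8 kb over 14 and 16 annotated transcripts. Per kilobase of the longest transcript Sox6 was at 9.55 and Sox5 at 4.11, which moved Sox6 above Sox11 and Sox5 above Sox10.

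**Figure D1:**
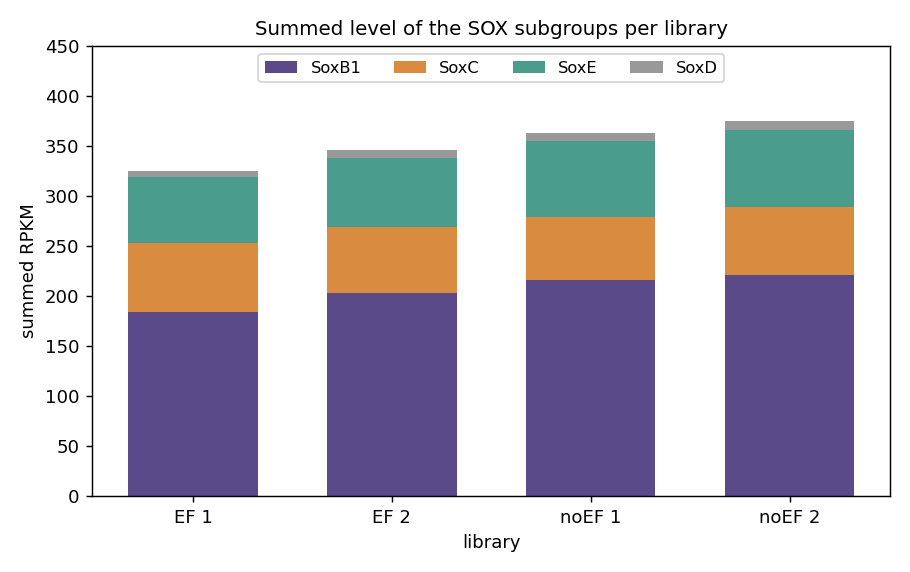
Summed level of each SOX subgroup in RPKM (vertical axis) in each of the 4 libraries (horizontal axis), with 1 stacked colour per subgroup. SoxB1 made up 56.7% to 59.5% of the summed SOX level in each library, and the whole stack ran from 325.5 RPKM in EF 1 to 375.2 RPKM in noEF 2.

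Summed over its members, SoxB1 held 56.7% and 58.6% of the SOX level per kilobase in EF and 59.5% and 59.0% in noEF. SoxC held 21.2% and 19.3% in EF against 17.6% and 18.1% in noEF. The share of SoxE was 20.1% and 19.8% in EF against 20.8% and 20.5% in noEF, and SoxD held about 2% throughout (1.99% to 2.31%). The summed SoxB1 level was 184.5 and 202.7 RPKM in EF against 215.7 and 221.4 RPKM in noEF, and that of SoxE 65.5 and 68.4 RPKM against 75.6 and 77.0 RPKM. Both sums were lower in each EF library than in either noEF library, while those of SoxC and SoxD overlapped. As the member values below show, the SoxB1 and SoxE sums each add genes that differed in opposite directions.

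The comparison of EF with noEF asks how transcripts of neural tissue differ once electrical stimulation has ended. Among the SOX genes, Sox9, the astroglial regulator, and Sox1, an early marker of the neural lineage, fell in EF, by 1.35-fold and 1.38-fold. No member rose by this test. In edgeR's quasi-likelihood fit, with p-values adjusted by Benjamini-Hochberg over all 14263 genes tested and calls made below 0.05, 2 of 10 members were lower in EF and 0 were higher. All 10 passed the filter on low counts. Of all genes tested, 4.99% were called lower, 3.83% higher and 8.82% in either direction. Higher genes made up 43.4% of all calls with TMM scaling and 69.3% with library totals. Without adjustment 5 members had p under 0.05, 2 of them higher (Sox3 and Sox8) and 3 lower (Sox1, Sox2 and Sox9), against 23.8% of all genes tested in either direction, 11.3% higher and 12.5% lower. DESeq2 called 0 members higher and 3 lower, and limma-voom called 0 higher and 2 lower. The members' log2 fold changes (EF minus noEF) were above 0 in 5 and below 0 in 5, with a median of -0.08 against 0.01 over all genes tested. Their median size was 0.27 against 0.22. The groups did not overlap for 7 of 10 members, which was also the case for 54.4% of all genes tested. EF was the higher group for 4 of these 7, as for 27.6% of all genes, and the lower group for 3, as for 26.8%.

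**Figure D2:**
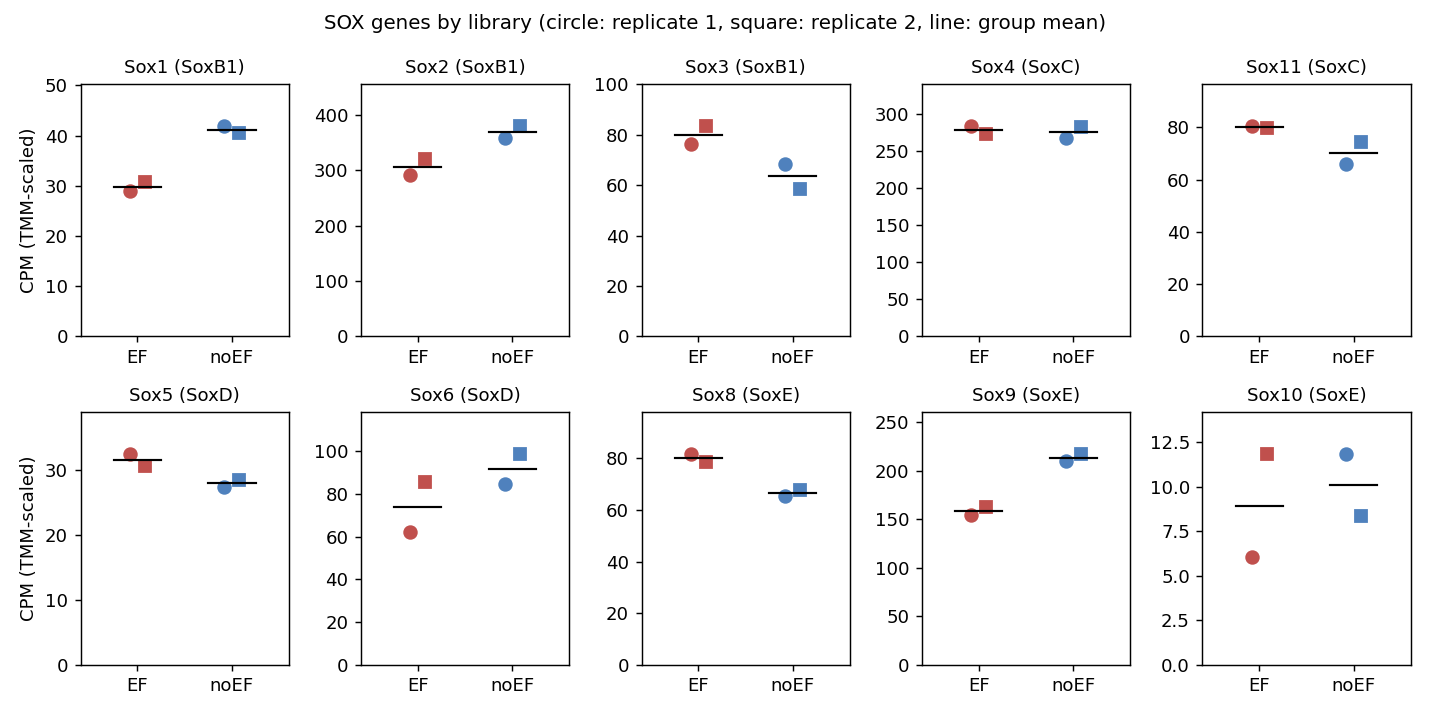
Expression of the 10 SOX genes in TMM-scaled CPM (vertical axis, from 0, 1 scale per gene) in the EF and noEF libraries. Points are single libraries and lines group means; Sox1, Sox2 and Sox9 lie lower in both EF libraries, Sox3, Sox5, Sox8 and Sox11 higher, and the groups overlap for Sox4, Sox6 and Sox10.

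Within SoxB1 the 3 genes did not move together. Sox1 (ENSMUSG00000096014, GRCm38 chromosome 8, 12395295 to 12400126, 1 exon) had 28.9 and 30.8 CPM in EF 1 and EF 2 and 42.0 and 40.4 CPM in noEF 1 and noEF 2. Both EF libraries were below both noEF libraries, with a gap larger than the spread within either group. Group means were 29.9 ± 1.38 and 41.2 ± 1.08 CPM (SD, n = 2 each), and edgeR put the log2 fold change at -0.46 (SE 0.12, adjusted p = 0.0287). This call was lost when EF 1, EF 2 or noEF 1 was left out (edgeR adjusted p = 0.198, 0.0606 and 0.0805) and with scaling by library totals (edgeR adjusted p = 0.0577).

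Sox2 (ENSMUSG00000074637, chromosome 3, 34650405 to 34652461, 1 exon), which keeps neural progenitors self-renewing and serves as their general marker, lay at 291 and 321 CPM in EF and 358 and 380 CPM in noEF. The EF libraries were again the lower ones, with a gap larger than the range within either group. Its log2 fold change of -0.27 (SE 0.08) missed the threshold in edgeR (adjusted p = 0.0597) and passed in DESeq2 (adjusted p = 0.0330). After removal of each library's trend on GC content and length it was at -0.14 (SE 0.08, edgeR adjusted p = 0.292).

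Sox3 (ENSMUSG00000045179, chromosome X, 60891366 to 60893430, 1 exon), the X-linked SoxB1 gene, went the other way. It had 76.4 and 83.6 CPM in EF and 68.6 and 58.3 CPM in noEF, so both EF libraries were above both noEF libraries. Its log2 fold change was 0.33 (SE 0.11) and it missed the threshold (edgeR adjusted p = 0.0642). Sox3 is the most GC-rich of the members, at 66.4% of its transcript against 50.5% for Sox2. After trend removal it was called higher (0.45, SE 0.08, edgeR adjusted p = 0.0038), and with library totals likewise (0.42, edgeR adjusted p = 0.0160).

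Promoters of the members were searched for short sequences that SOX and POU proteins are known to bind, and 3 matches are shown to give their form. RefSeq promoters (GRCm38.p6, 250 bases before to 50 after the start) were at hand for 7 of the 10 members, with 12 entries of which 6 belong to Sox6. They were searched on both strands for the SOX sites ACAATG and ACAAAG and for ATGCAAAT, the octamer bound by POU factors, which partner SoxB1 proteins. The promoters of Sox1, Sox2 and Sox5 held 1 site each, so no overlap of sites could arise in the windows printed. The windows below are 30 bases long, 5′ to 3′ on the strand of the gene, with the motif in capitals. They are chr8:12395526-12395555 (plus strand) for Sox1, chr3:34649777-34649806 (plus strand) for Sox2 and chr6:143947243-143947272 (minus strand) for Sox5. These RefSeq starts differ from the GENCODE gene starts. That of Sox5 is internal, since the gene runs from 143828425 to 144781977 on the minus strand. The Sox1 start lies within the gene and the Sox2 start upstream of it.
Sox1 octamer, 18 bases after the start: gccagcgcgccATGCAAATcaccgccgccg
Sox2 ACAAAG, 206 bases before the start: ggggggggggatACAAAGgttccccagcgg
Sox5 ACAATG, 154 bases before the start: gactgaagagacACAATGgttgtgaatact

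The octamer is held by 1.74% of 32851 RefSeq promoters of this length, ACAAAG by 18.7%, ACAATG by 12.6% and at least 1 of both SOX sites by 28.6%. A match is a description of these letters and shows no binding. Of the 6 Sox6 entries 5 held a SOX site, and the promoters of Sox4, Sox8 and Sox11 held none of the 3 motifs.

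In SoxE, Sox9 fell and Sox8 did not. Sox9 (ENSMUSG00000000567, chromosome 11, 112782224 to 112787760, 3 exons), which starts gliogenesis and stays on in astrocytes, had 154 and 162 CPM in EF and 210 and 217 CPM in noEF. The groups stood well apart, with means of 158 ± 5.87 and 213 ± 5.40 CPM (SD, n = 2 each). Its log2 fold change of -0.43 (SE 0.08) had the smallest p of the members (edgeR adjusted p = 0.00521). Across 13 alternatives the log2 fold change ran from -0.47 to -0.34, and 12 of them kept the call. Without EF 1 it was at -0.39 (edgeR adjusted p = 0.0504).

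Sox8 (ENSMUSG00000024176, chromosome 17, 25565892 to 25570686), which shares glial functions with Sox9 and Sox10, had 81.7 and 78.8 CPM in EF and 65.4 and 67.7 CPM in noEF. Both EF libraries were higher, opposite to Sox9. The log2 fold change of 0.27 (SE 0.10) missed the threshold (edgeR adjusted p = 0.0929). It was called after trend removal (0.34, edgeR adjusted p = 0.0210) and with library totals (0.36, edgeR adjusted p = 0.0265).

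Sox10 (ENSMUSG00000033006, chromosome 15, 79154908 to 79165240), the lineage factor of oligodendrocytes and of neural crest, was sparse and varied within the groups. It had 6.02 and 11.8 CPM in the EF libraries and 11.8 and 8.36 CPM in the noEF libraries. Its log2 fold change of -0.18 (SE 0.34) did not pass (edgeR adjusted p = 0.815) and ran from -0.74 without EF 2 to 0.23 without EF 1. The SE of this gene was the largest of the members, so a change of the size seen for Sox9 was not detectable in it.

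The SoxC genes did not pass. Sox4 (ENSMUSG00000076431, chromosome 13, 28948919 to 28953713, 1 exon), which helps turn on neuronal genes in committed cells but is also made in many other cell types, had 285 and 274 CPM in EF and 268 and 284 CPM in noEF. The groups overlapped, and the log2 fold change was 0.02 (SE 0.08, edgeR adjusted p = 0.933). Its sign changed in 4 of 13 alternatives, without a call in any. Sox11 (ENSMUSG00000063632, chromosome 12, 27334264 to 27342574, 1 exon), which acts in the same step, had 80.6 and 79.8 CPM in EF and 65.9 and 74.3 CPM in noEF. Both EF libraries were higher, with a gap between the groups smaller than the range within noEF (0.19, SE 0.10, edgeR adjusted p = 0.254).

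The SoxD genes did not pass either. Sox5 (ENSMUSG00000041540, chromosome 6, 143828425 to 144781977) had 32.5 and 30.7 CPM in EF and 27.4 and 28.6 CPM in noEF, without overlap (0.18, SE 0.13, edgeR adjusted p = 0.444). Sox6 (ENSMUSG00000051910, chromosome 7, 115470872 to 116038796), its close relative, had 62.3 and 85.5 CPM in EF and 84.7 and 98.8 CPM in noEF. The low value of EF 1 set most of the difference (log2 fold change -0.31, SE 0.15, edgeR adjusted p = 0.276). Without EF 1 it was at -0.10 (edgeR adjusted p = 0.809), and without EF 2 at -0.56 with a call (edgeR adjusted p = 0.0119). Counts per gene do not separate the many transcripts of Sox5 and Sox6.

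**Figure D3:**
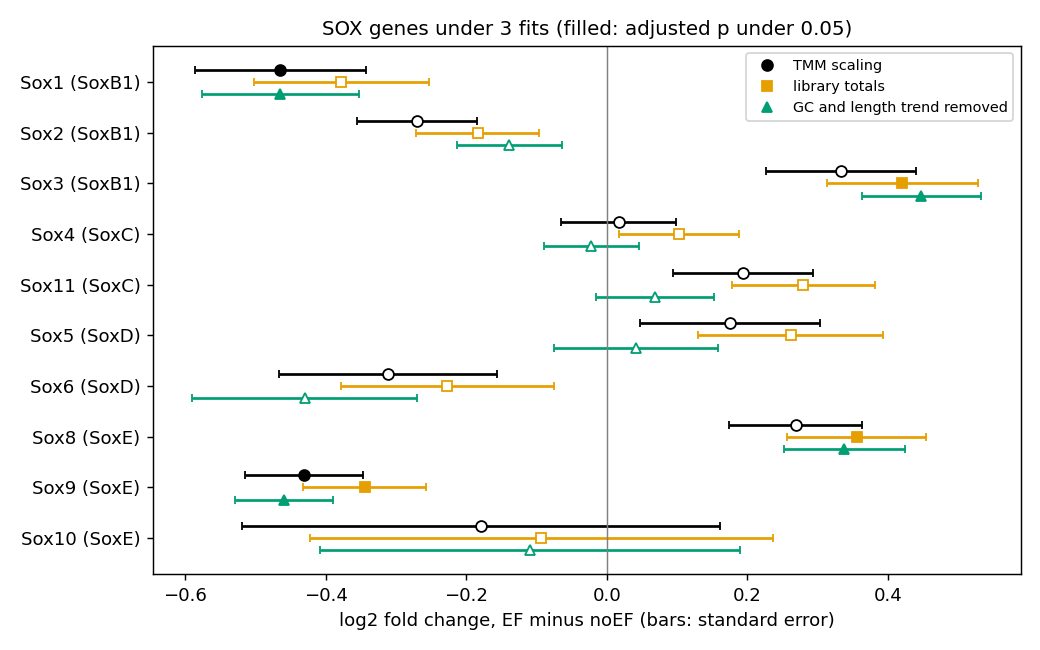
Log2 fold change of EF minus noEF (horizontal axis) with its standard error for the 10 SOX genes (vertical axis) under TMM scaling, library totals, and after removal of each library's GC and length trend. Filled symbols have an adjusted p under 0.05; Sox9 is filled in all 3 fits, Sox1 under TMM and after trend removal, and Sox3 and Sox8 with library totals and after trend removal.

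Scaling by a common factor within each library shifts all members alike, but it cannot change the ratio of a pair of members within a library. Removal of the GC and length trend can change it. Under trend removal the log2 fold change of Sox2 went from -0.27 to -0.14, while that of Sox1 stayed at -0.465. The ratios below were computed without trend removal. The Sox8 to Sox9 ratio per kilobase was 0.703 and 0.643 in EF and 0.414 in both noEF libraries, so Sox8 was nearer to Sox9 in each EF library, and the mean ratio was 1.63 times that of noEF. The Sox1 to Sox2 ratio was 0.0422 and 0.0409 in EF and 0.050 and 0.0453 in noEF. Sox4 stood at 6.12 and 5.94 times Sox11 in EF and at 7.04 and 6.62 times in noEF. The Sox5 to Sox6 ratio was 0.538 and 0.371 in EF and 0.334 and 0.298 in noEF, with EF 1 far from the rest. The Sox10 to Sox9 ratio overlapped between the groups, at 0.053 and 0.0985 in EF and 0.0765 and 0.0521 in noEF. The Sox10 to Sox9 pair was not among the pairs planned, and Sox3 was added after its values were seen. Its ratio to Sox1 was 6.19 and 6.34 in EF and 3.82 and 3.38 in noEF, and its ratio to Sox2 was 0.261 and 0.260 in EF and 0.191 and 0.153 in noEF. With 2 libraries against 2 an exact permutation test cannot go below p = 0.333 (two-sided), so these ratios are given as values without a test.

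**Figure D4:**
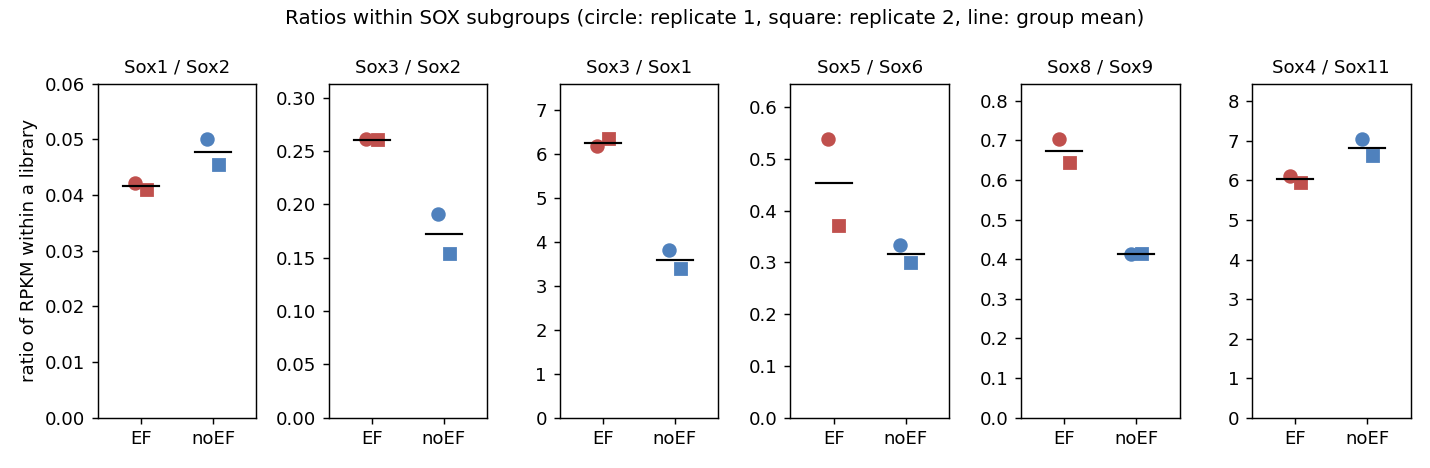
Ratio of RPKM between pairs of SOX genes within each library (vertical axis, from 0) in EF and noEF, with points for single libraries and lines for group means. The Sox8 to Sox9 ratio is 0.703 and 0.643 in EF against 0.414 in noEF, and Sox3 to Sox1 is 6.19 and 6.34 against 3.82 and 3.38.

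Of the 10 other genes of the SOX family, 4 passed the filter (Sox7, Sox12, Sox13 and Sox21). By edgeR 0 of these were called in either direction, 0 had an unadjusted p under 0.05, and DESeq2 and limma-voom also called 0. Sox21, which opposes the SoxB1 proteins and promotes neuronal differentiation, was the most abundant at 94.9 and 102 CPM in EF and 97.7 and 116 CPM in noEF. Its log2 fold change was -0.11 (SE 0.10, edgeR adjusted p = 0.540). The third SoxC gene, Sox12, was at 47.9 and 44.1 CPM in EF and 44.6 and 44.9 CPM in noEF (0.04, SE 0.11), and the third SoxD gene, Sox13, at 5.13 and 7.48 CPM in EF and 6.70 and 7.05 CPM in noEF (-0.13, SE 0.25). Sox7 had 0 counts in EF 1 and at most 34 in another library (-1.20, SE 1.24). Sox14, Sox17 and Sry had 0 counts in every library, and Sox15, Sox18 and Sox30 had at most 17 counts in a library.

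Genes known to work with or downstream of SOX proteins were read, together with the 10 other SOX family genes above, from 6 lists. These lists held 99 distinct genes, of which 74 were tested. By edgeR 1 was higher and 5 were lower in EF, with a median log2 fold change of 0.03. In either direction 8.82% of all genes tested were called, with 3.83% higher and 4.99% lower. Of 20 partner and cofactor genes 19 were tested and 0 were called in either direction, and 2 higher and 1 lower gene had an unadjusted p under 0.05, where 23.8% of all genes did. DESeq2 called 1 of them lower and limma-voom 0. The POU factor Pou3f2, a partner of Sox2 on neural enhancers, was at 20.1 and 22.9 CPM in EF and 25.8 and 26.7 CPM in noEF (log2 fold change -0.29, SE 0.14, edgeR adjusted p = 0.233). Nfia, which Sox9 induces at the onset of gliogenesis and then binds, was at 123 and 142 CPM in EF and 159 and 168 CPM in noEF. Both EF libraries were lower, and the difference missed the threshold in edgeR (-0.30, SE 0.09, adjusted p = 0.0560). It was called lower in 6 of 13 alternatives, among them trend removal (-0.45, edgeR adjusted p = 0.00373), and was at -0.20 without EF 1 (edgeR adjusted p = 0.445).

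Of the 20 progenitor genes associated with SoxB1, 16 were tested, 1 was higher and 2 were lower, beside 3.83% and 4.99% of all genes. Ccnd1, the G1 cyclin D1, rose from 496 and 518 CPM to 698 and 689 CPM (0.45, SE 0.08, edgeR adjusted p = 0.00255). Gfap, a glial filament, and Fabp7, a lipid carrier of radial glia, were the lower genes, at -1.45 and -0.50. After trend removal Fabp7 was at -0.30 and was still called (edgeR adjusted p = 0.0101). Nes, whose neural enhancer is a known SoxB1 and POU target, had 135 and 126 CPM in EF and 122 and 115 CPM in noEF (0.14, SE 0.09, edgeR adjusted p = 0.369). The Notch effector Hes5 was low, at 4.79 and 5.45 CPM in EF and 7.10 and 6.16 CPM in noEF (edgeR adjusted p = 0.389).

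Of the 20 glial genes associated with SoxE, 19 were tested, 0 were higher and 3 were lower (Gfap, Mmd2 and Pdgfra). Over all genes tested, 3.83% were higher and 4.99% lower. At an unadjusted p under 0.05 the count of higher genes was also 0 (11.3% of all genes), as it was in DESeq2 and limma-voom. Gfap had 238 and 241 CPM in EF and 641 and 671 CPM in noEF. Mmd2, a gene that Sox9 and Nfia activate together in early glia, had 417 and 431 CPM in EF and 628 and 640 CPM in noEF. Its groups were far apart, and the log2 fold change was -0.58 (SE 0.08, edgeR adjusted p = 3.79e-04). Apcdd1 and Zcchc24, which belong to the same set of joint targets and were singled out after their values were seen, did not pass (0.42 and -0.08, edgeR adjusted p = 0.566 and 0.596), and Apcdd1 stayed below 3 CPM. Pdgfra, the receptor of oligodendrocyte precursors, had 25.7 and 30.4 CPM in EF and 35.3 and 44.9 CPM in noEF (-0.52, SE 0.14, edgeR adjusted p = 0.0396). This call was lost with library totals, without EF 1 and without noEF 2 (edgeR adjusted p = 0.0648, 0.258 and 0.187), and without noEF 2 the log2 fold change was -0.34. Olig2, the bHLH factor of the oligodendrocyte lineage, was at 296 and 333 CPM in EF and 298 and 295 CPM in noEF, with overlap (edgeR adjusted p = 0.598).

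Of the 20 young neuron genes associated with SoxC, 13 were tested, 0 were higher and 1 was lower (3.83% and 4.99% of all genes). At an unadjusted p under 0.05 there were 1 higher and 3 lower (23.8% of all genes in either direction), and DESeq2 and limma-voom called 0 higher and 1 lower. Mapt, the microtubule protein tau, was the lower gene, at 95.2 and 99.2 CPM in EF and 130 and 128 CPM in noEF (-0.40, SE 0.09, edgeR adjusted p = 0.00976), and the call was lost without EF 1 (edgeR adjusted p = 0.0756). Tubb3, neuronal tubulin, lay at 12.3 and 12.5 CPM in EF and 10.7 and 10.9 CPM in noEF (edgeR adjusted p = 0.558). Dcx, a microtubule protein of migrating neurons, lay at 14.1 and 15.7 CPM in EF and 17.6 and 23.4 CPM in noEF (edgeR adjusted p = 0.109), and was called lower in 3 of 13 alternatives. Of 14 cartilage matrix genes that SoxD and Sox9 control in chondrocytes, 8 were tested and 0 were called by edgeR, DESeq2 or limma-voom, with 2 higher and 0 lower at an unadjusted p under 0.05, again beside 23.8% of all genes. Col2a1, the main collagen of cartilage, was not tested, at 0.119 to 0.401 CPM.

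Marker levels moved with the groups beside these results. The counts that follow stand beside 4.99% of all genes tested called lower and 3.83% called higher by edgeR. Of 10 astrocyte markers 5 were lower in EF and 0 higher by edgeR (0 higher also at an unadjusted p under 0.05). Their summed levels were 6175 and 5921 CPM in EF and 7032 and 7244 CPM in noEF. Of 10 cell cycle markers 9 were higher, with sums of 1300.0 and 1221 CPM in EF and 786 and 776 CPM in noEF. Of 10 neural stem and progenitor markers 1, Fabp7, was lower, with sums of 4897 and 5180 CPM in EF and 6585 and 6190 CPM in noEF. The part of these shifts in the values of Sox9 and Sox1 was not tested, and in bulk RNA fewer cells of a type and less RNA per cell cannot be told apart. Oligodendrocyte lineage markers summed to 2454 and 2795 CPM in EF and 2570 and 2423 CPM in noEF, with overlap, 2 of 9 tested lower (Gpr17 and Pdgfra) and 0 higher. Neuron markers summed to only 71.9 to 81.7 CPM, and 2 of 10, Stmn2 and Slc17a6, had 0 counts.

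Endothelial, chondrocyte, fibroblast, mural and microglia markers were close to absent, whereas the neural crest and ependymal lists were not. Endothelial markers summed to 1.41 to 3.11 CPM with Cdh5 and Sox17 at 0, chondrocyte markers to 3.72 to 5.80 CPM with Comp at 0, and fibroblast and mural markers to 4.67 to 10.3 CPM with Lum and Kcnj8 at 0. In the fibroblast and mural list Acta2 was higher by edgeR, at 8.68 and 4.84 CPM in EF and 3.13 and 2.88 CPM in noEF. For this list DESeq2 called 1 gene higher and 0 lower, and limma-voom 0 higher and 1 lower. Microglia and macrophage markers summed to 3.31 to 6.91 CPM, and 7 of 10 had 0 counts. Neural crest and Schwann cell markers, which also mark cells that use Sox10, summed to 162 to 184 CPM through genes that glia share, while Foxd3, Tfap2a and Pax3 had 0 counts. Ependymal markers summed to 39.1 and 38.4 CPM in EF and 58.7 and 52.2 CPM in noEF, with Rarres2 lower and Tmem212 and Pifo at 0. The progenitor genes Nes, Vim and Sox2 were present in every library. So was the astrocyte marker Slc1a3, at 2484 to 2992 CPM, and these genes do not single out neural stem cells.

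**Figure D5:**
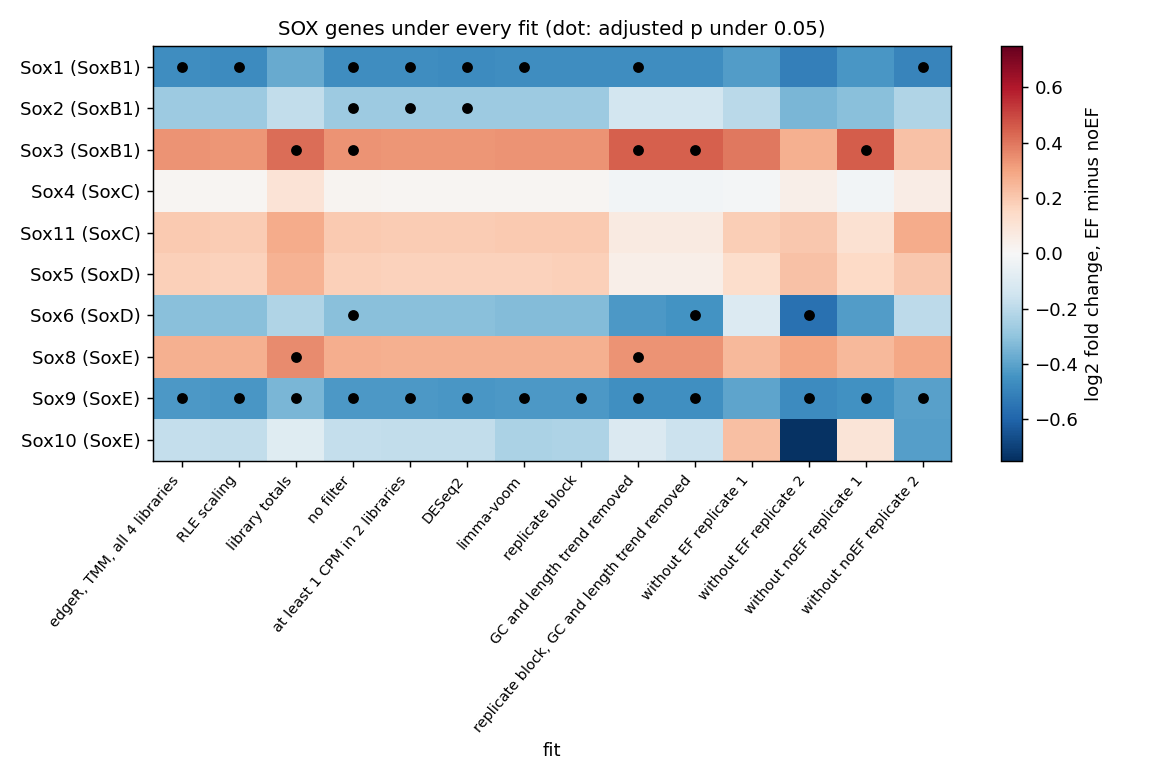
Log2 fold change of EF minus noEF (colour) for the 10 SOX genes (vertical axis) in the fit with TMM scaling and all 4 libraries (leftmost) and in 13 alternatives (horizontal axis), with a dot where the adjusted p is under 0.05. Sox9 is lower in every column and has a dot in all but the fit without EF 1, Sox1 has a dot in 7 of 13 alternatives, and Sox4, Sox5, Sox10 and Sox11 have none.

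Across the 13 alternatives Sox1 was called lower in 7, Sox2 lower in 3, Sox6 lower in 3, Sox3 higher in 5 and Sox8 higher in 2. The sign of the log2 fold change held in all of them for 8 of 10 members, and it changed for Sox4 and Sox10, which were never called.

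These counts stand beside the shares of all genes called in the same fits, apart from those with the replicate block. With the block 410 of 14263 genes were higher and 568 lower, against 0 members higher and 1 lower. With the block and trend removal 307 genes were higher and 458 lower, against 1 member higher and 2 lower. DESeq2 called 4.86% of genes higher and 7.13% lower, limma-voom 3.96% and 5.18%, and RLE factors gave 3.63% and 4.92%. With library totals 7.98% were higher and 3.54% lower, against 2 members higher and 1 lower. Without a filter the shares were 5.28% and 6.95%, against 1 member higher and 4 lower, and with at least 1 CPM in 2 libraries they were 5.01% and 6.39%, against 0 and 3. After trend removal 4.19% were higher and 6.2% lower, with 2 members in each direction. Without EF 1 the shares were the lowest of these, at 1.47% and 2.29%, and 0 members were called. They were 2.86% and 5.53% without EF 2, 2.8% and 3.38% without noEF 1, and 5.35% and 7.21% without noEF 2.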

How the data were processed

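RNA of 2 EF and 2 noEF libraries was analysed, with groups and replicate numbers from the sample titles and columns matched by library name. Per the labels' protocols, polyadenylated RNA was fragmented, primed with random hexamers and amplified by PCR, with no step described that keeps the strand. The authors' deposited values are raw counts by gene, as whole numbers. Per the submitters' processing notes, HISAT2 2.0.4, StringTie 2.2.1, DESeq2 1.44.0 and GRCm38 were used; how reads were counted is not given in the sources used here. Replicates were not copies of each other: chi-square over its degrees of freedom was 18.7 for the EF pair and 19.8 for the noEF pair.

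All genes were fitted with edgeR 4.0.16 in R 4.3.3 (filterByExpr with minimum count 10 and minimum total 15, TMM, robust quasi-likelihood F test), and p-values were adjusted over 14263 genes. Each SE was derived from the F statistic and the fold change. Exon length, GC content and transcripts came from GENCODE M21, and the fit was tested on simulated data. For the trend-removed fit, splines (5 degrees of freedom each) on GC content and log length were fitted per library over the 94.2% of tested genes that have both. Other alternatives were RLE factors, library totals, other filters, DESeq2 1.42.0, limma-voom (limma 3.58.1), the replicate block and each library left out. With 1 library left in a group, that library is assumed to vary like the other group.

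The members and lists were chosen with earlier results of these data known. Named genes are all members, the tested SOX relatives, up to 4 called genes per pathway list by smallest p, and Nes, Hes5, Pou3f2, Nfia, Olig2, Gfap, Tubb3, Dcx and Col2a1.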

Additional observations from a re-analysis of the deposited data

How the results depend on the processing

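With scaling by library totals, 1138 genes were higher, among them 2 SOX members (Sox3 and Sox8) and 3 genes of the pathway lists, and 1 SOX member (Sox9) was lower. The log2 ratio of summed CPM then became 0.141 for SoxC, -0.143 for SoxE and -0.038 for all members, against 0.055, -0.229 and -0.124. Without a filter on low counts 915 genes were higher and 1203 lower, with 1 (Sox3) and 4 (Sox1, Sox2, Sox6 and Sox9) SOX members. After removal of the GC and length trend 2 SOX members (Sox3 and Sox8) were higher, and 4 and 9 pathway genes were called higher and lower. The causes of these changes were not tested.

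The replicate number as a block gave 410 higher and 568 lower genes and left 1 SOX member lower, Sox9; Sox1 kept its log2 fold change of -0.46 and missed the threshold (edgeR adjusted p = 0.0567). The block together with trend removal gave 307 higher and 458 lower genes, 1 SOX member higher (Sox3) and 2 lower (Sox6 and Sox9), and 2 pathway genes higher and 6 lower, with Fabp7 no longer called (edgeR adjusted p = 0.078). Deviations of the libraries numbered 1 correlated at -0.09 between the groups, and the labels give same-numbered libraries nothing else in common. The library name of EF 2 also carries another number than its title. The edgeR fit behind the main results therefore does not treat the numbers as pairs. The fits with the block do, and they are counted among the 13 alternatives.

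Leaving out 1 library at a time gave 217 to 790 higher and 337 to 1065 lower genes, 0 to 1 SOX member higher and 0 to 2 lower, and 1 to 2 pathway genes higher and 3 to 6 lower. The lowest counts of all genes (217 and 337) and of SOX members (0 and 0) came without EF 1, the highest of all genes without noEF 2, and the 1 SOX member higher (Sox3) without noEF 1. RLE factors, the 1 CPM filter, DESeq2 and limma-voom kept every count within 1.5 times. Over 26 single genes and 13 alternatives, 304 values kept their call status, 12 lost their call, 22 gained one and 0 reversed with a call. Values that changed sign without a call in either fit are counted among the 304. With 2 libraries per group, changes of the size of Sox2 or Sox8 lie at the limit of what could be called.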
